A study of Mus musculus with 12 samples.

Results

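The Notch genes examined here are 10 named members of the pathway, found in the tables by gene name: the receptors Notch1, Notch2 and Notch4, the ligands Dll4, Jag1 and Jag2, and the target genes Hey1, Hey2, Hes1 and Nrarp. All 10 were found among the 19564 genes of the deposited tables, and all are listed in both of them. RNA had been sequenced from glomerular endothelial cells (GEC) of 3 wild type (WT) and 3 Alport syndrome (AS) mice, AS being a progressive kidney disease caused by loss of a collagen IV chain. Both genotypes were C57BL/6 mice of 4 months that carried TekCre and a tdTomato reporter, and the AS mice were also Col4a5 -/-. From the glomeruli of each mouse, cells with a weak tdTomato signal (dim tdT) and with a strong one (bright tdT) were sorted, which gave 12 libraries in 4 groups of 3: WT-dim, AS-dim, WT-bright and AS-bright. Mice are numbered 1 to 3 within a genotype, and the dim and bright library of a mouse share its number. The reporter marks any cell in which the Tek promoter drove Cre at some time, and Tek, the receptor of the angiopoietins, is known from endothelium and also from blood-forming cells.

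Notch receptors are single-pass membrane proteins that are bound by Delta-like (Dll) and Jagged (Jag) ligands on a neighbouring cell. Binding lets proteases release the intracellular part of the receptor, which enters the nucleus and joins the DNA-binding protein Rbpj to switch on target genes, among them the Hes and Hey repressors and Nrarp, an inhibitor of the same complex. In blood vessels the pathway is best known for arterial identity and for the choice of tip cells in sprouting, with Dll4 and Notch4 largely restricted to endothelium, whereas Notch2 is also used by lymphoid and myeloid cells.

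Rbpj binds the core letters TGGGAA, and this core was searched on both strands of the 300-base promoters (250 bases before the start and 50 after it) given by RefSeq on GRCm38.p6. A promoter was matched for 8 of the 10 genes, all but Hey1 and Hes1. The core is in 25.6% of all 32851 promoters, and among the 8 it was found in that of Hey2 alone, at 2 places, 3 bases before the start on the gene's strand and 207 bases before it on the opposite strand (TTCCCA). The longer form GTGGGAA is in 6.38% of all promoters and includes the core. The Hey2 promoter is printed because it holds these matches, which are in capitals. The Dll4 promoter is printed because Dll4 was the only member to pass a main test involving genotype, in dim cells and for the interaction. Both read 5′ to 3′ on the gene's strand, at chr10:30842734-30843033 (minus strand) and chr2:119325534-119325833 (plus strand). A match describes letters in this window and is not a binding site.
Hey2: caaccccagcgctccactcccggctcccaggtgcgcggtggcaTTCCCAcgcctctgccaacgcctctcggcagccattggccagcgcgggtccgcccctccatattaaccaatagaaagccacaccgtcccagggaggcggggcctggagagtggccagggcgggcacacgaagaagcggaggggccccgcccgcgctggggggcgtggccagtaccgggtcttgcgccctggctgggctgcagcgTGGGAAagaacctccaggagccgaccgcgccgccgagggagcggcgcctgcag
Dll4: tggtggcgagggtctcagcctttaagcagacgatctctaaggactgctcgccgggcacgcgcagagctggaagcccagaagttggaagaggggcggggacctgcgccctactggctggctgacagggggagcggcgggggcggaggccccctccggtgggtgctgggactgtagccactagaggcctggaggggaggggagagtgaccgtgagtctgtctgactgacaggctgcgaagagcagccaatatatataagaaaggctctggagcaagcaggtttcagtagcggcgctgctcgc

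The libraries held 11440169 to 15074909 counts on genes. Levels are given as CPM, the counts of a gene per M counts of its library, after TMM scaling over all 12 libraries. Col4a5, the targeted gene, was at 37.8 to 74.6 CPM in the WT-dim and 1.36 to 3.61 CPM in the AS-dim libraries, but at 4.77 to 10.05 CPM in the WT-bright and 3.05 to 6.64 CPM in the AS-bright libraries, so that its levels separate the genotypes in the dim libraries only. The summed level of 12 endothelial markers, such as Cdh5 and Kdr, was 10876 to 18503 CPM in the 6 bright libraries, 737 to 1381 CPM in the WT-dim and 230.5 to 317 CPM in the AS-dim libraries. Leukocyte markers were the reverse: 14 of them summed to 7986 to 13816 CPM in the WT-dim and 15427 to 17627 CPM in the AS-dim libraries, and the 9 listed in the bright table to 29.1 to 131 CPM there. All 12 endothelial markers were detected in every group, but in each of the 6 dim libraries the leukocyte sum was above the endothelial sum. Its highest members there were Coro1a (4032 to 7465 CPM) and Lyz2 (2353 to 7757 CPM). Proximal tubule markers summed to 1795 to 8226 CPM in the WT-dim and podocyte markers to 815 to 865 CPM in the AS-dim libraries. Each of these sums was also above the endothelial sum of its library. These values go against the label of a purely endothelial sort. The paper reports, however, that nearly all cells of both sorts stained for Ehd3 in flow cytometry. The name "dim tdT GEC" is kept below for the gate. Mouse 1 of the WT stood apart in proximal tubule markers, which summed to 8226 CPM in its dim and 3434 CPM in its bright library, against 1795 to 1865 and 574 to 826 CPM in the other WT mice. So did mouse 2 of the AS mice, at 524 CPM in its dim and 818 CPM in its bright library. The other AS mice were at 31.8 to 49.2 and 129 to 137 CPM.

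**Figure D1:**
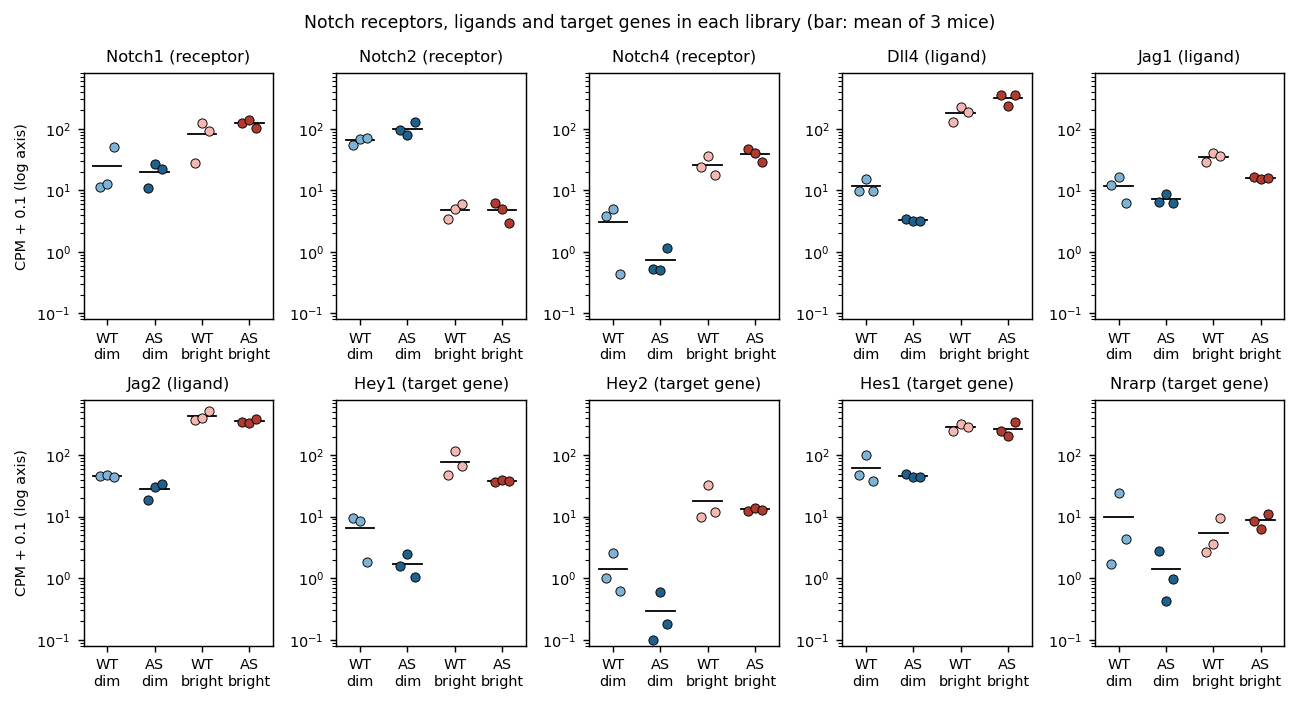
Level of each of the 10 Notch genes in the 12 libraries, as CPM plus 0.1 on a log axis, with 1 point per mouse and a bar at the mean of 3 mice. Dll4 sits between 3.07 and 15.2 CPM in the dim and between 129 and 359 CPM in the bright libraries, Notch2 is the only gene with every bright library below every dim library, and Notch1 and Nrarp overlap between the WT-dim and WT-bright groups.

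The first question was how the pathway differed between the dim and bright cells of the same mice. In the WT, 8 of the 10 genes passed the test, 7 higher in the bright cells and 1, Notch2, lower. Over all genes tested, 25.3% passed in this comparison, 13.8% higher and 11.5% lower. In the AS mice all 10 passed, 9 higher in the bright cells and again Notch2 lower, where 55.1% of all genes passed, 28.6% higher and 26.5% lower. Counting instead the genes whose bright and dim libraries did not overlap in CPM gave 8 of 10 in the WT, against 42.2% of all genes, and 10 of 10 in the AS mice, against 62.4%. Fold changes are on the log2 scale ± SE, from the quasi-likelihood fit of edgeR with 3 libraries in each group, and p-values were adjusted by the Benjamini-Hochberg method across the whole table. The 12 endothelial markers moved with these genes: each was higher in the bright cells, and the median of their log2 fold changes was 3.67 in the WT and 6.24 in the AS mice. In bulk samples fewer cells of a type and less RNA per cell cannot be told apart.

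Among the receptors, Notch4 was the one most tied to the bright cells. Notch4 (chr17:34564268-34588503, plus strand), a receptor typical of endothelium, stood at 23.9, 35.5 and 17.9 CPM in the bright cells of WT mice 1, 2 and 3 and at 3.76, 4.91 and 0.340 CPM in their dim cells. In the AS mice the values were 46.5, 40.3 and 29.1 CPM in the bright and 0.425, 0.415 and 1.04 CPM in the dim cells, the latter resting on 5 to 13 counts. Every bright library was above every dim one, and the log2 fold change was 3.19 ± 0.64 in the WT (adjusted p = 0.00613) and 5.97 ± 0.41 in the AS mice (adjusted p = 1.01e-06). A pseudogene, Gm20462, lies in Notch4 on the opposite strand.

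Notch1 (chr2:26457903-26516663, minus strand), the receptor with the widest role in arterial and sprouting endothelium, varied widely between WT mice. Its level was 27.5, 126 and 91.7 CPM in the bright and 11.4, 12.7 and 50.01 CPM in the dim cells of WT mice 1, 2 and 3. In the AS mice it was 125, 137 and 104 CPM in the bright and 10.6, 26.2 and 22.0 CPM in the dim cells. The bright library of each of the 6 mice was the higher one, but the WT groups overlapped, since the bright library of mouse 1 was below the dim library of mouse 3. The log2 fold change was 2.67 ± 0.30 in the AS mice (adjusted p = 4.39e-05), and 1.79 ± 0.68 in the WT, which did not pass (adjusted p = 0.0861). The WT value passed in 6 of 14 alternative fits. With a replicate block for the mouse, it was 1.86 and passed (adjusted p = 0.0235). It also passed without WT-dim mouse 3, at 2.86 (adjusted p = 0.0150), and without WT-bright mouse 1, at 2.21 (adjusted p = 0.0348). The genes 0610009E02Rik and Gm13568 overlap Notch1 on the opposite strand, and the strand used for counting is not given in the sources used here.

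Notch2 (chr3:98013527-98150361, plus strand), which B cells and myeloid cells also use, had the opposite pattern. It was at 3.37, 4.91 and 5.82 CPM in the bright and 55.1, 69.3 and 71.1 CPM in the dim cells of the WT mice, and at 6.09, 4.92 and 2.86 CPM in the bright and 94.1, 77.8 and 128 CPM in the dim cells of the AS mice. The 4 groups of values split without overlap by subpopulation, with a log2 fold change of -3.71 ± 0.35 in the WT (adjusted p = 0.000106) and -4.41 ± 0.31 in the AS mice (adjusted p = 1.4e-06). Within single mice the dim cells were 12.2 to 16.4 times higher in the WT and 15.4 to 44.9 times higher in the AS mice. The leukocyte markers moved the same way: all 9 that were listed in both tables were lower in the bright cells of both genotypes, with medians of -7.80 and -7.24 on the log2 scale. Their part in the Notch2 difference was not tested. Gm42819 and Gm42820 overlap Notch2 on its own strand, so its count is uncertain to that extent.

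Levels of different genes were compared as CPM per kb of exon, and on that scale the receptor that led was a different one in the 2 subpopulations. Notch3, a receptor best known from mural cells, was added to the sum of receptors for this purpose. Notch2 made up 61.6% ± 6.9 (SD, n = 3) of the receptor sum in the WT-dim and 79.6% ± 7.4 in the AS-dim cells, but 3.21% ± 0.65 in the WT-bright and 2.31% ± 0.64 in the AS-bright cells. Notch1 made up 39.0% ± 17.6 and Notch4 23.6% ± 6.7 in the WT-bright cells, and 47.1% ± 7.4 and 26.01% ± 4.1 in the AS-bright cells. Notch3 made up 34.1% ± 14.4 in the WT-bright and 24.6% ± 10.7 in the AS-bright cells, so that its share overlapped that of Notch4 in both and that of Notch1 in the WT. In dim cells Notch4 was 3.92% ± 3.14 of the sum in the WT and 0.638% ± 0.221 in the AS mice. Bright cells of WT mouse 1 differed from the rest in that Notch3 was its leading receptor, at 49.0% of the sum. That library also held the most mural and mesangial marker RNA of all, 939 CPM against 448 to 823 CPM in the other bright libraries, and the part of those cells was not tested.

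**Figure D2:**
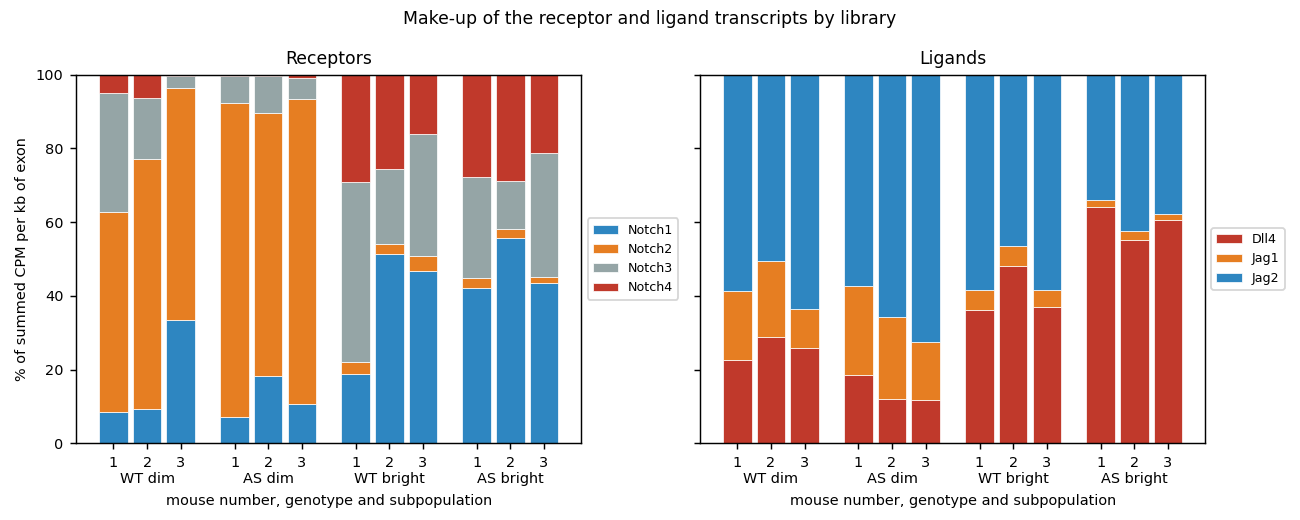
Share of each receptor (left) and ligand (right) in the summed CPM per kb of exon, with 1 bar for each of the 12 libraries. Notch2 takes at least 54.1% of the receptor sum in every dim and at most 3.92% in every bright library, and Dll4 takes 55.3% to 64.0% of the ligand sum in the AS-bright libraries against 36.1% to 48.0% in the WT-bright ones.

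All 3 ligands were higher in bright cells of both genotypes, and Dll4 by the most. Dll4 (chr2:119325784-119335962, plus strand), the Delta-like ligand of arterial and tip cells, was at 129, 228 and 185 CPM in the bright and 9.58, 15.2 and 9.78 CPM in the dim cells of WT mice 1, 2 and 3. In AS mice 1, 2 and 3 it was at 359, 236 and 348 CPM in the bright and 3.33, 3.07 and 3.11 CPM in the dim cells. Within single mice the bright cells were thus 13.4 to 18.9 times higher in the WT and 76.7 to 112 times higher in the AS mice, 2 ranges that do not overlap. The log2 fold change was 4.05 ± 0.34 in the WT (adjusted p = 5.53e-05) and 6.65 ± 0.26 in the AS mice (adjusted p = 3.88e-08). The gene Gm14207 overlaps Dll4 on the opposite strand.

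Jag2 (chr12:112907819-112929776, minus strand), a Jagged ligand, led the 3 ligands in CPM per kb of exon in the 6 dim libraries and in WT-bright mice 1 and 3. It was at 377, 398 and 528 CPM in the WT-bright and 346, 326 and 391.9 CPM in the AS-bright cells, against 45.1, 48.2 and 43.6 CPM in the WT-dim and 18.5, 30.1 and 34.2 CPM in the AS-dim cells. The bright libraries were all above the dim ones, with a log2 fold change of 3.34 ± 0.25 in the WT (adjusted p = 2.5e-05) and 3.71 ± 0.25 in the AS mice (adjusted p = 8.32e-07).

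Jag1 (chr2:137081456-137116644, minus strand), the Jagged ligand that opposes Dll4 in sprouting vessels, differed least of the 3 ligands between the subpopulations. It was at 29.1, 40.2 and 35.9 CPM in the WT-bright and 12.2, 16.5 and 6.12 CPM in the WT-dim cells, and at 16.1, 15.1 and 15.6 CPM in the AS-bright and 6.44, 8.55 and 6.22 CPM in the AS-dim cells. Groups did not overlap in either genotype, and the log2 fold change was 1.69 ± 0.41 in the WT (adjusted p = 0.0148) and 1.17 ± 0.26 in the AS mice (adjusted p = 0.00379). Without WT-bright mouse 2 or mouse 3 the WT call was lost (adjusted p = 0.0556 and 0.0503). Per kb of exon the 3 ligands summed to 11.5 ± 2.0 (SD, n = 3) in the WT-dim, 6.00 ± 1.20 in the AS-dim, 115 ± 20 in the WT-bright and 135 ± 21 in the AS-bright cells, and Jag1 was 16.8% ± 5.4 and 20.6% ± 4.3 of that sum in the dim against 5.25% ± 0.44 and 2.01% ± 0.30 in the bright cells of the WT and AS mice.

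Of the 4 target genes, Hey1, Hey2 and Hes1 followed the ligands in both genotypes. Hey1 (chr3:8663359-8667256, minus strand), a transcriptional repressor of arterial endothelium, was at 47.6, 116 and 67.2 CPM in the WT-bright and 36.4, 39.3 and 37.3 CPM in the AS-bright cells. In dim cells it was at 9.31, 8.27 and 1.70 CPM in the WT and 1.49, 2.41 and 0.958 CPM in the AS mice. Every bright library was above every dim library, and the log2 fold change was 3.68 ± 0.57 in the WT (adjusted p = 0.00149) and 4.57 ± 0.32 in the AS mice (adjusted p = 1.26e-06).

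Hey2 (chr10:30832359-30842801, minus strand), the closest relative of Hey1 and the gene whose promoter is printed above, was near the limit of detection in dim cells. Its counts were 10, 29 and 6 in the WT-dim and 0, 6 and 1 in the AS-dim libraries, or at most 2.50 CPM, and 9.86, 32.7 and 11.6 CPM in the WT-bright and 12.3, 13.9 and 12.9 CPM in the AS-bright cells. The log2 fold change of bright over dim cells was 3.86 ± 0.75 in the WT (adjusted p = 0.00527) and 6.12 ± 0.60 in the AS mice (adjusted p = 2.86e-06). The value in the WT ranged from 3.14 without WT-bright mouse 2 to 4.76 without WT-dim mouse 2. That in the AS mice rests on at most 6 counts in an AS-dim library and ranged from 5.50 without AS-dim mouse 1 to 8.14 without AS-dim mouse 2.

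Hes1 (chr16:30064384-30067796, plus strand), a repressor that many cell types use, was the most abundant of the 4 target genes per kb of exon in every group, with 83.1% to 95.6% of their sum on average. Its level was 244, 326 and 281 CPM in the WT-bright, 249.3, 207 and 340 CPM in the AS-bright, 48.2, 99.9 and 38.5 CPM in the WT-dim and 49.2, 43.2 and 43.2 CPM in the AS-dim cells. Bright and dim libraries did not overlap, with log2 fold changes of 2.28 ± 0.37 in the WT (adjusted p = 0.00199) and 2.57 ± 0.21 in the AS mice (adjusted p = 4.19e-06).

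Nrarp (chr2:25180758-25183339, plus strand), the feedback inhibitor, stood apart from the other target genes in the WT. It was at 2.61, 3.53 and 9.58 CPM in the WT-bright and 1.61, 24.0 and 4.17 CPM in the WT-dim cells, so that the groups overlapped and mouse 2 went the other way from mice 1 and 3. The change of -0.84 ± 0.90 on the log2 scale did not pass (adjusted p = 0.528), and without WT-dim mouse 2 it was 0.94 (adjusted p = 0.434). In the AS mice it was at 8.43, 6.26 and 11.1 CPM in the bright and 2.69, 0.332 and 0.878 CPM in the dim cells, without overlap, and rose by 2.67 ± 0.53 on the log2 scale (adjusted p = 0.0018), or by 3.82 without AS-dim mouse 1. The antisense gene Gm38287 overlaps Nrarp.

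**Figure D3:**
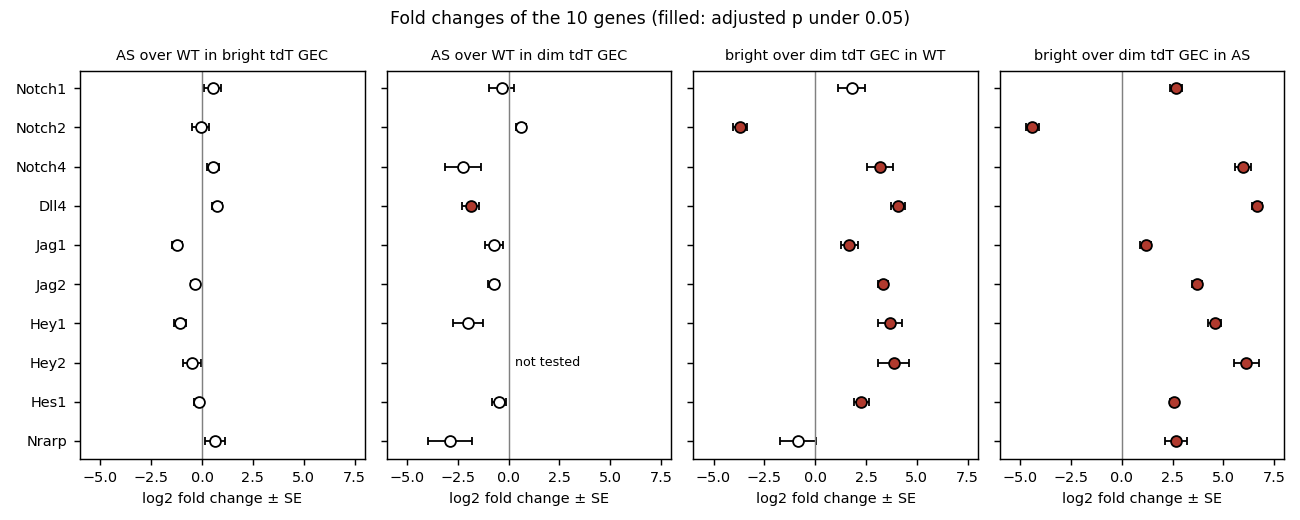
Log2 fold change ± SE of the 10 genes in the 4 comparisons, 3 libraries a group, with filled points where the adjusted p was under 0.05. Between the genotypes only Dll4 in dim cells is filled, at -1.87, whereas 8 points are filled for bright over dim cells in the WT and 10 in the AS mice.

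The second question was what differed between AS and WT mice within the bright cells, where the endothelial markers were high in both genotypes. None of the 10 Notch genes passed the quasi-likelihood test, where 0.452% of all genes passed, 0.188% higher and 0.264% lower in the AS mice. At an unadjusted p under 0.05 there were 3, Dll4 higher and Jag1 and Hey1 lower, against 21.8% of all genes, and DESeq2 called 2, Jag1 and Hey1, against 7.76% of all genes. The same 3 genes were those whose AS and WT libraries did not overlap, against 24.7% of all genes.

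Jag1 was lower in the AS-bright cells, where all 3 mice were between 15.1 and 16.1 CPM, than in the WT-bright cells, where they were between 29.1 and 40.2 CPM. The log2 fold change was -1.22 ± 0.25, or 2.33 times lower, with an adjusted p of 0.0547 that missed the threshold. Hey1 was between 36.4 and 39.3 CPM in the AS-bright and between 47.6 and 116 CPM in the WT-bright cells, with a log2 fold change of -1.08 ± 0.30 (adjusted p = 0.0958). Both passed without WT-bright mouse 1, at -1.32 for each gene (adjusted p = 0.0339 for Jag1 and 0.0397 for Hey1). That library had the lowest Jag1 (29.1 CPM) and Hey1 (47.6 CPM) of the WT-bright group. It also had the most proximal tubule marker RNA of the bright libraries, and the part of that RNA was not tested. Without any other bright library neither passed, with adjusted p-values up to 0.293 for Jag1 and 0.348 for Hey1, both without AS-bright mouse 1. Hey1 was at -0.67 without WT-bright mouse 2, the library with its highest level. Under DESeq2 Jag1 was at -1.24 (adjusted p = 0.000382) and Hey1 at -1.10 (adjusted p = 0.0172). The calls of both genes thus depended on the test.

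Dll4 went the other way, from 129 to 228 CPM in the WT-bright to 236 to 359 CPM in the AS-bright cells, and the change of 0.75 ± 0.25 on the log2 scale failed the test (adjusted p = 0.136). On the scale of CPM per kb, Dll4 was 40.3% ± 6.7 (SD, n = 3) of the ligand sum in the WT-bright and 59.9% ± 4.4 in the AS-bright cells, and Jag2 was 54.4% ± 6.9 and 38.1% ± 4.1. These shares did not overlap between genotypes for Dll4, Jag2 or Jag1, although an exact permutation test of 3 against 3 libraries cannot give a two-sided p below 0.1. In all 3 AS-bright libraries Dll4 was the leading ligand by this measure, against 1 of the WT-bright libraries, that of mouse 2.

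The other 7 genes did not pass in the bright cells. Notch1 and Notch4 had log2 fold changes of 0.54 ± 0.42 and 0.53 ± 0.31, Notch2 of -0.07 ± 0.44, Jag2 of -0.35 ± 0.20, Hey2 of -0.51 ± 0.44, Hes1 of -0.16 ± 0.22 and Nrarp of 0.65 ± 0.50, with adjusted p-values from 0.342 to 0.94. In each of these 7 genes the AS and WT values overlapped.

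Markers of the cell types were also compared between the genotypes of the bright cells, and none of them passed after adjustment. An unadjusted p under 0.05 was reached by 21.8% of all genes, in either direction. By that criterion 10 of 12 proximal tubule markers were lower in the AS-bright cells (median log2 fold change -2.54). So were 5 of 6 markers of other tubule segments (median -2.81). By the same criterion 5 of 8 podocyte markers were higher (median 0.90), as were 4 of 12 endothelial markers (median 0.39) and 1 of 5 leukocyte markers tested (median 0.49). The counts for endothelial and leukocyte markers lie nearer the share of all genes. Of 9 mural and mesangial markers tested, 1 was higher and 3 were lower (median -0.04). The summed proximal tubule markers were at 574 to 3434 CPM in the WT-bright and 129 to 818 CPM in the AS-bright libraries. The podocyte markers were at 1012 to 1256 and 1404 to 1573 CPM. The part of these cell types in the values of Jag1, Hey1 and Dll4 was not tested.

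In the dim cells 1 of the 9 genes that could be tested passed, and it was Dll4. Over all genes 8.63% passed, 2.21% higher and 6.42% lower in the AS mice. Dll4 fell from 9.58, 15.2 and 9.78 CPM in the WT-dim to 3.33, 3.07 and 3.11 CPM in the AS-dim cells, which do not overlap, and its log2 fold change was -1.87 ± 0.42, or 3.65 times lower (adjusted p = 0.0352). The call was lost without WT-dim mouse 2, at -1.66 (adjusted p = 0.0606), and without AS-dim mouse 1, 2 or 3, at -1.93, -1.89 and -1.85 (adjusted p = 0.137, 0.101 and 0.139).

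Of the others in dim cells, 5 more were past an unadjusted p of 0.05, as were 26.3% of all genes. Notch4 (-2.26 ± 0.88), Hey1 (-2.001 ± 0.72), Nrarp (-2.88 ± 1.10) and Jag2 (-0.74 ± 0.28) were lower in the AS mice and Notch2 (0.61 ± 0.24) was higher, with adjusted p-values from 0.122 to 0.156. Without 1 library Nrarp ranged from -1.16 (without WT-dim mouse 2, which held 279 of its counts against 18 and 49 in the other WT-dim libraries) to -4.04 (without AS-dim mouse 1), and Notch2 was at 0.40 without AS-dim mouse 3. Of the 9 genes tested, Dll4, Jag2 and Notch2 had libraries that did not overlap between genotypes, against 31.2% of all genes. Notch4 and Hey1 overlapped through WT-dim mouse 3, at 0.340 and 1.70 CPM, and without that library both passed, at -2.79 (adjusted p = 0.0287) and -2.46 (adjusted p = 0.0280). Notch1 had a log2 fold change of -0.35 ± 0.61, Jag1 of -0.73 ± 0.45 and Hes1 of -0.47 ± 0.36 (adjusted p from 0.354 to 0.767), and Hey2 had too few counts to be tested, its libraries not overlapping at 0.510 to 2.50 CPM in the WT-dim and 0 to 0.498 CPM in the AS-dim cells.

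The endothelial markers moved with these dim cell values. Of the 12, 8 were lower in the AS-dim than in the WT-dim cells and none was higher, with a median log2 fold change of -2.22. Of 14 leukocyte markers 2 were higher. Over all genes 6.42% were lower and 2.21% higher. Tubule markers fell as well, 7 of 12 for the proximal tubule and 5 of 5 tested for other segments. Of 8 podocyte markers 3 were lower and 1 higher. Set against the summed endothelial markers of the same library, Dll4 was at 7.85 to 13.3 CPM per 1000 CPM of markers in the WT-dim, 9.80 to 14.4 in the AS-dim, 11.8 to 14.1 in the WT-bright and 14.4 to 22.0 in the AS-bright cells. On this scale the AS-dim and WT-dim libraries overlap, the dim and bright cells of the WT overlap as well, and the AS-bright cells lie above both WT groups, with the AS-dim cells reaching their lower end.

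Notch4 was likewise at 0.462 to 3.55 per 1000 CPM of endothelial markers in the WT-dim, 1.37 to 3.27 in the AS-dim, 1.24 to 2.20 in the WT-bright and 1.84 to 2.52 in the AS-bright cells, which overlap in every pair of groups. Hey1 was at 2.31 to 7.63, 3.02 to 7.94 and 4.38 to 7.19 in the WT-dim, AS-dim and WT-bright cells and at 1.97 to 2.40 in the AS-bright cells, below the AS-dim and WT-bright cells but overlapping the WT-dim cells through mouse 3. Jag1 fell from 2.48 to 2.68 in the WT-bright to 0.869 to 0.984 in the AS-bright cells, so that Jag1 and Hey1 of AS-bright cells did not overlap the WT-bright cells on this scale either. By contrast Jag1, Hes1, Nrarp, Notch1 and Notch2 were higher relative to endothelial markers in every dim than in every bright library of their genotype, Notch2 by the most, at 45.2 to 96.5 in the WT-dim and 257 to 408 in the AS-dim against at most 0.404 in the bright cells. Nrarp was at 1.32 to 17.4 in the WT-dim and 1.10 to 11.7 in the AS-dim against 0.218 to 0.664 in the WT-bright and 0.383 to 0.700 in the AS-bright cells, the reverse of its order by CPM in the AS mice. Jag2 was higher in every dim library of the AS mice alone. The endothelial sum used as divisor was 737 to 1381 CPM in the WT-dim, 230.5 to 317 CPM in the AS-dim and 10876 to 18503 CPM in the bright libraries. Any gene that is lower in dim cells by a smaller factor than these markers therefore comes out higher there. The share of all genes with this order was not computed. These ratios are descriptions, and the part of other cell types in the levels of dim cells was not tested.

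**Figure D4:**
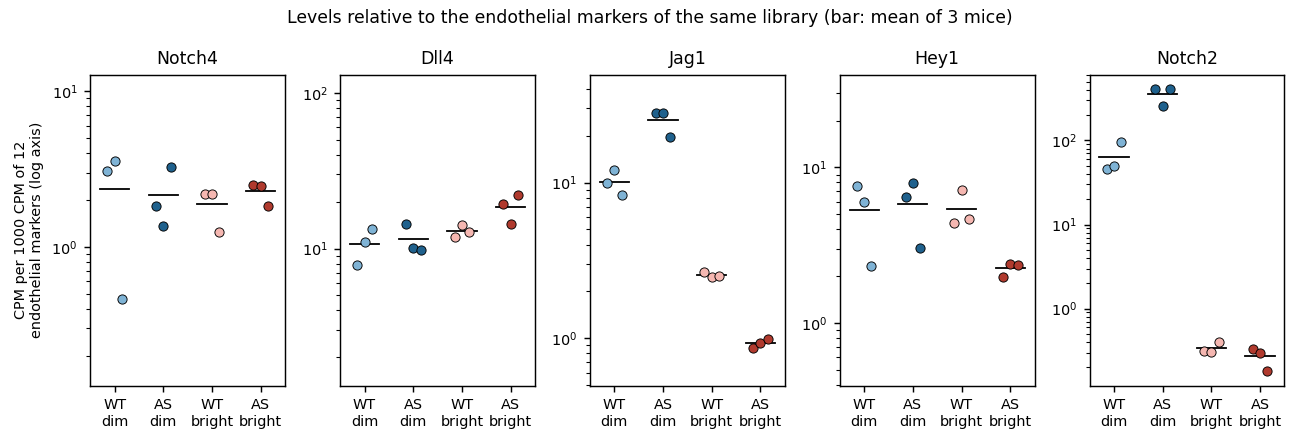
Level of 5 of the genes as CPM per 1000 CPM of the 12 summed endothelial markers of the same library, on log axes, with 1 point per mouse and a bar at the mean of 3 mice. Notch4 overlaps in all 4 groups, Jag1 and Hey1 of the AS-bright libraries lie below those of the WT-bright libraries, and Notch2 is at 45.2 or more in every dim and at 0.404 or less in every bright library.

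The third question was whether the effect of the AS genotype differed between the subpopulations, tested as an interaction in a fit of all 12 libraries. Only Dll4 passed among the 10 genes, where 3.82% of all genes passed, in either direction. The difference for Dll4 was 2.66 ± 0.42 on the log2 scale (adjusted p = 0.00464), or 2.52 relative to the median of all genes, which was 0.14 here. In the separate fits of each subpopulation, the values for Dll4 were the 0.75 in bright and the -1.87 in dim cells given above. Of the 12 endothelial markers 10 passed in the same direction, with a median of 2.602, close in size to Dll4. Notch4 (2.84 ± 0.91), Nrarp (3.58 ± 1.25) and Hey2 (2.32 ± 1.41) had larger errors and did not pass (adjusted p = 0.103, 0.135 and 0.389), and the other 6 had adjusted p-values from 0.49 to 0.714. Without WT-dim mouse 3, Notch4 passed as well, at 3.37 (adjusted p = 0.0104). Nrarp ranged from 1.67 (without WT-dim mouse 2) to 4.59 (without AS-dim mouse 1) and Hey2 from 1.30 (without WT-dim mouse 2) to 4.35 (without AS-dim mouse 2).

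The rest of the pathway was described with a list of 55 further genes, of which 47 were tested in each comparison. In the bright over dim comparison 10 were higher and 4 lower in the WT and 19 higher and 12 lower in the AS mice, so that 14 and 31 of 47 passed, beside 25.3% and 55.1% of all genes. The 14 of the WT became 9, 7 and 9 without WT-bright mouse 1, 2 or 3, and 21 with the replicate block. The median log2 fold changes were 0.38 and 0.35, against -0.04 and 0.02 over all genes and 2.73 for the 10 genes above in the WT. The largest rises were of the ligands Dlk1 (5.72 ± 0.65 in the WT and 7.03 ± 0.42 in the AS mice), a non-canonical one, and Dll1 (3.25 ± 0.68 and 5.90 ± 0.45), followed by Neurl1b (2.61 ± 0.46 and 4.71 ± 0.36), an ubiquitin ligase that acts on ligands. Lower in the bright cells by the most were Dtx4 (-3.95 ± 0.80 and -3.57 ± 0.51), a ubiquitin ligase of the Deltex family, and Aph1c (-2.18 ± 0.55 and -3.89 ± 0.37), a subunit of the protease that cleaves Notch, followed by Neurl3 in the WT (-1.87 ± 0.30) and Tle3, a corepressor, in the AS mice (-1.97 ± 0.16).

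Rbpj, the DNA-binding partner of all Notch receptors, was lower in bright cells, at -0.79 ± 0.26 in the WT, which did not pass (adjusted p = 0.0523), and at -1.44 ± 0.17 in the AS mice (adjusted p = 5.11e-05). Its mean level was 185 CPM in the WT-dim, 266 CPM in the AS-dim, 100 CPM in the WT-bright and 96.2 CPM in the AS-bright cells. Notch3 was at 2.42 ± 0.39 for bright over dim cells in the AS mice (adjusted p = 0.000437) and 1.51 ± 0.59 in the WT (adjusted p = 0.0968), and 4 of 8 mural and mesangial markers tested were higher in bright cells of the WT and 8 of 8 in the AS mice.

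Between genotypes 1 of 47 genes of the longer list passed in bright cells, where 0.452% of all genes did, and 2 of 47 in dim cells, where 8.63% did. In the bright cells Neurl3, a member of the Neuralized family, rose by 1.38 ± 0.24 (adjusted p = 0.0412). In the dim cells Neurl3 (0.98 ± 0.23, adjusted p = 0.0421) and Lfng (1.22 ± 0.26, adjusted p = 0.0298), a glycosyltransferase that tunes which ligand a receptor answers to, rose in the AS mice. Neurl3 thus rose in both subpopulations, with AS and WT libraries that did not overlap in either. These calls were fragile: the 1 in bright cells was lost with library sizes alone, without a filter on low counts, with the replicate block, with the version 3 quasi-likelihood fit of edgeR and without WT-bright mouse 3 or AS-bright mouse 1 or 3, and the 2 in dim cells became 0 with the block and without WT-dim mouse 1 or any 1 AS-dim mouse, and 1 without a filter, with the version 3 fit and without WT-dim mouse 2 or 3. In the other direction DESeq2 called 3 in bright and 4 in dim cells, where it called 7.76% and 15.1% of all genes, and 1 fit of all libraries called 3 in dim cells. For the interaction none of the 47 passed the quasi-likelihood test, 7 were past an unadjusted p of 0.05 and DESeq2 called 1, against 18.6% and 7.86% of all genes. The likelihood ratio test called 1 as well, and 2 were called without WT-dim mouse 3 and 1 without WT-bright mouse 1 or AS-dim mouse 2.

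Arterial endothelial genes, many of which Notch is known to regulate, were set beside the members as a list of 10. In bright over dim cells 8 were higher and 1 lower in the WT and 8 higher and 2 lower in the AS mice, beside 25.3% and 55.1% of all genes, with medians of 3.47 and 5.79 on the log2 scale. For AS over WT in the dim cells their median was -1.56, against -2.22 for the 12 endothelial markers, of which 8 were lower. Of the 10 arterial genes 4 were lower in the AS-dim cells, where 6.42% of all genes were. They were the gap junction gene Gja4 (-3.29 ± 0.66), the transcription factor gene Sox17 (-3.25 ± 0.68), Igfbp3 (-3.20 ± 0.55), which encodes a binding protein of insulin-like growth factors, and Efnb2 (-1.77 ± 0.29), the ephrin that marks arteries, with adjusted p-values from 0.0206 to 0.0293. The 4 became 0 without AS-dim mouse 1 or 3 and 1 without AS-dim mouse 2 or with the replicate block. In the bright cells none of the 10 passed and their median was 0.08, with 3 past an unadjusted p of 0.05 and 1 called by DESeq2, beside 21.8% and 7.76% of all genes. Without WT-bright mouse 2, 1 was called. For the interaction 5 of 10 passed (3 without AS-dim mouse 1), beside 3.82% of all genes, all with a more positive change in bright cells, as 10 of 12 endothelial markers did.

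Over the 12 libraries the genes with the pattern most like that of a member, by Pearson's r of log2(CPM + 1) among 15083 other genes, were F2r, Ptprm and Apold1 for Dll4 (r = 0.995 for each), Dkk2, F11r and Pcdh1 for Notch4 (0.991 to 0.989) and Casc4, Esm1 and Lnx2 for Hey1 (0.987 to 0.986). The points share the split into bright and dim libraries, which alone gives high values, so that these are descriptions with no test.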

How the data were processed

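The data were 12 RNA-seq libraries made with a poly-A selected stranded kit, a dim tdT and a bright tdT library for each of 3 WT and 3 AS mice. Per the study's methods the authors aligned paired reads with STAR 2.6.0c (GRCm38.p5, annotation Gencode M16) and deposited the counts that STAR gave per gene, not normalized, in 1 table per subpopulation (17811 genes for dim and 17521 for bright tdT GEC, 15768 in both). The strand of counting is not given in the sources used here. The authors also deposited RPKM, which were not used, because the deposited gene length was longer than the union of exons for most members (2.31 times the union for Notch4), and columns of their own AS over WT comparison (log2 fold change, logCPM, likelihood ratio, p-value, FDR), which were not used. The 92 ERCC spike-in rows (0.0286% to 0.282% of counts) were left out.

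The members and gene lists were chosen with earlier results of these data known. Tests were run in R 4.3.3 on these counts, with edgeR 4.0.16 (TMM, filterByExpr, quasi-likelihood test in the form introduced with version 4, Benjamini-Hochberg adjustment over all genes tested, threshold 0.05). SE is the absolute log2 fold change over the square root of F. AS over WT used the 6 libraries of a table, bright over dim cells the 6 libraries of a genotype on the genes in both tables, and the interaction all 12. Levels are CPM with TMM factors over 12 libraries, and comparisons between genes used CPM per kb of union exon length from Gencode M21 on GRCm38, whose coordinates are given. Promoters are RefSeq's. The fits were tested on simulated counts. All 10 members are named in every comparison, and of the other pathway genes that passed, up to 3 a direction by the size of the change with logCPM above 1, with Rbpj and Notch3 always, the arterial genes that passed between genotypes, and the 3 genes most like Notch4, Dll4 and Hey1.

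The number of a mouse, from the labels, pairs its dim and bright library. For like numbers, deviations from the group mean correlated at 0.197 on average in the WT and 0.213 in the AS mice. For unlike numbers the means were -0.0985 and -0.105, values largely fixed by centring on the mean of 3 and thus no separate comparison. AS-bright mouse 1 correlated more with AS-dim mouse 3 (0.189) than with its own dim library (0.0796). WT and AS mice are different animals, so their numbers pair nothing. Alternatives were RLE scaling, library sizes alone, no filter on low counts, DESeq2 1.42.0, edgeR's likelihood ratio test, the replicate block, 1 fit of all libraries, leaving out each library, and, added after the data had been seen, the quasi-likelihood fit of edgeR version 3. With 3 libraries a group, p-values rest on the spread between 3 mice.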

Additional observations from a re-analysis of the deposited data

Results flagged for a closer look

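The effect of the AS genotype on Dll4 differed between bright and dim tdT GEC in a test of the difference itself, the interaction in edgeR's quasi-likelihood fit, at 2.66 ± 0.42 on the log2 scale (adjusted p = 0.00464). The 3 AS-dim libraries were all below the 3 WT-dim libraries and the 3 AS-bright libraries all above the 3 WT-bright libraries. It stayed past the threshold in every alternative run, among them without each of the 12 libraries. Of the 12 endothelial markers 10 differed in the same direction, and their part in the Dll4 difference was not tested.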

How the results depend on the processing

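Across 736 alternative fits of 49 member values, 701 kept their direction and their side of the threshold, 7 lost the call, 19 gained one and 9 changed sign. The number of members called in AS over WT in bright tdT GEC, 0, became 2 (Jag1 and Hey1, lower) under DESeq2 and the likelihood ratio test, and 0 to 2 without 1 library (2 without WT-bright mouse 1). In dim tdT GEC the 1 became 2 under DESeq2 (Nrarp added) and in 1 fit of all 12 libraries (Hey1 added), and 0 to 3 without 1 library (0 without WT-dim mouse 2 or any 1 AS-dim mouse, 3 without WT-dim mouse 3). Of bright over dim tdT GEC, the 8 in the WT ranged from 7 to 9 without 1 library and the 10 in the AS mice stayed 10. The difference between subpopulations went from 1 to 2 (Notch4 added) under DESeq2 and the likelihood ratio test, and ranged from 1 to 2 without 1 library (2 without WT-dim mouse 3). The cause of these changes was not tested.

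All 9 changes of sign were in values that did not pass and came from leaving out 1 library. In AS over WT in bright tdT GEC, Hey2 ranged from -0.79 to 0.22 (above 0 without WT-bright mouse 2), Notch2 from -0.33 to 0.16 (above 0 without AS-bright mouse 3, and at 0.08 without WT-bright mouse 3) and Hes1 from -0.38 to 0.0018 (above 0 without AS-bright mouse 2). In dim tdT GEC, Hes1 ranged from -0.72 to 0.0077 (above 0 without WT-dim mouse 2) and Notch1 from -0.71 to 0.69 (above 0 without WT-dim mouse 3). Nrarp in bright over dim tdT GEC of the WT ranged from -1.60 to 0.94 (above 0 without WT-dim mouse 2), and for the difference between subpopulations Hes1 ranged from -0.30 (without WT-dim mouse 2) to 0.62 and Notch1 from -0.12 (without WT-dim mouse 3) to 1.26.

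With the replicate block, which is the mouse for bright over dim tdT GEC and for the interaction, 9 members were called in the WT (Notch1 added), 10 in the AS mice and 1 for the interaction, and no other member call changed in these 3. Calls over all genes went from 3604 to 4444, from 7743 to 7755 and from 576 to 882. For AS over WT the number is shared by unrelated mice (mean correlation of -0.0363 in bright and -0.0504 in dim tdT GEC), and the block left 0 members called in both subpopulations, Dll4 in dim tdT GEC being at -1.84 (adjusted p = 0.0792), with 16 in place of 65 and 494 in place of 1263 genes called.

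Counts over all genes depended on the test as well. AS over WT in bright tdT GEC gave 65 calls, 1117 with DESeq2, 827 with the likelihood ratio test, 140 in 1 fit of all libraries, 39 without a filter, 0 with the version 3 quasi-likelihood fit and 0 to 281 without 1 library (0 without WT-bright mouse 3 or AS-bright mouse 1 or 3); in dim tdT GEC the 1263 became 2213, 1946, 2143, 964, 582 and 0 to 1825 (0 without AS-dim mouse 1). The interaction's 576 became 1186, 1126, 572 and 461 by the same alternatives that could be run, and 254 to 890 without 1 library. The version 3 fit called the same number of members, 0, 1, 8, 10 and 1. The median interaction over all genes was 0.14 with TMM, 0.08 with RLE and -0.03 with library sizes alone. Counts were low for Hey2 and Notch4 in dim cells, with at most 29 and 57 a library. In the AS-dim libraries they were also low for Nrarp (4 to 38), Hey1 (12 to 29) and Dll4 (37 to 47).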
